A study of Mus musculus with 100 samples.

Results

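The suppressor of cytokine signaling (SOCS) family was examined at the chromatin of its 8 genes, Cish, Socs1, Socs2, Socs3, Socs4, Socs5, Socs6 and Socs7. Every chromatin immunoprecipitation sequencing (ChIP-seq) region that the authors' annotation assigned to one of these genes was taken from all 15 count tables, whatever its signal. This gave 589 of 610301 regions, and 582 of them held enough tags to be tested. Socs3 had 173 regions, Socs6 had 160 (157 tested), Socs1 had 122 (120 tested), Cish had 61 (60 tested), Socs5 had 42, Socs7 had 23 (22 tested) and Socs2 had 8. Socs4 had 0. A region belongs to the gene with the nearest transcription start site (TSS), so a region counted here for a gene is near it and is not shown to act on it.

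The study asked how NCoR (a corepressor of nuclear receptors), its partner deacetylase HDAC3 and the coactivator PGC1β behave on macrophage chromatin when Toll-like receptor 4 (TLR4) is engaged. Bone marrow-derived macrophages (BMDMs) came from C57BL/6 mice of 8 to 12 wk, were serum-starved for 12 h and received vehicle (Veh) or Kdo2 lipid A (KLA), a TLR4 agonist, for 6 h. The p300 Veh libraries are described as 0 h of KLA, unlike those of NCoR, HDAC3, p65, Fosl2 and PU.1, which had vehicle for 6 h, so for p300 KLA and the time in culture cannot be told apart. Binding of NCoR, HDAC3, PGC1β, the acetyltransferase p300, the kinase ERK1, the NFκB subunit p65, the AP-1 subunit Fosl2 and the macrophage lineage factor PU.1 was compared in wild-type (WT) cells. Histone H3 acetylated at lysine 27 (H3K27ac), which marks promoters and enhancers in use, was profiled in 3 experiments. In the first, WT cells carried floxed NCoR alleles without Cre, and NCoR-deficient (NKO) cells carried them with LysM-Cre, which is active in myeloid cells. In the second, Pgc1b flox cells were compared with Pgc1b flox Cre cells, the same floxed alleles with LysM-Cre. Only the deleted lines carried Cre, so Cre itself and the loss of NCoR or PGC1β cannot be told apart. In the third, WT cells had DMSO with Veh, DMSO with KLA, or the HDAC3 inhibitor RGFP966 with KLA. NCoR and PGC1β binding was also measured in WT cells given the ERK inhibitor LY3214996 (ERKi) with KLA. The comparison was KLA alone for NCoR and DMSO with KLA for PGC1β, and the PGC1β experiment included DMSO with Veh. By the study's methods, both inhibitors were added with the serum starvation, 12 h before KLA. No group had an inhibitor without KLA, so its effect before KLA and on the KLA response cannot be told apart. ERK1 and p300 binding was measured in WT osteoclast precursors at day 0 and after 4 days of RANKL (Day0 and Day4). Each of the 35 groups had 2 libraries. The labels call them biological replicates, and nothing says that they came from separate animals or cultures, so the p-values measure only the spread between these libraries. In bulk chromatin, fewer cells with a bound site and less binding in each cell cannot be told apart.

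SOCS proteins are cytosolic inhibitors of cytokine signaling. Each has an SH2 domain, which binds phosphorylated tyrosines on receptors or kinases, and a SOCS box, which recruits an elongin and cullin ubiquitin ligase. CIS (encoded by Cish), SOCS1, SOCS2 and SOCS3 are the classic feedback members: cytokines activate Janus kinases (JAKs), JAKs activate STAT factors, and STATs switch on these genes. SOCS1 and SOCS3 also block JAK activity directly, and in macrophages they restrain interferon and IL-6 signaling. SOCS4, SOCS5, SOCS6 and SOCS7 are less tied to STAT activation and are known mainly from receptor tyrosine kinase and insulin signaling.

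The 70 libraries held 4.30 to 21.5 M tags. Values below are tags per 10 M of each library's total. At these depths 3 tags corresponded to 1.39 to 6.98 tags per 10 M, which sets how far a low value can be read. A region was called changed when the adjusted p of edgeR's quasi-likelihood F-test was under 0.05 over all regions of its table and the change exceeded 2-fold. After each log2 fold change stands its standard error. The background of a comparison is the percentage of all its tested regions that were called. Scaling by TMM sets the typical region to no change. It moved the median log2 fold change of all regions by more than 0.1 in 22 of 25 comparisons (shifts of -1.61 to 1.18). A direction is given below on library totals unless TMM is named. By the study's methods, H3K27ac was counted over regions set by open chromatin or factor peaks. A region present or missing at a marker gene is therefore not itself a measure of acetylation. Promoter regions were present for 9 of 9 macrophage marker genes in the tables of 1 kb windows. In the table of WT and NKO cells 6 of 9 had one (all but Csf1r, Adgre1 and Lyz2). None of the T cell, B cell or stromal markers had a promoter region. Of the neutrophil markers 1 of 5 had a promoter region in each table, and of the osteoclast markers 1 or 2 of 7.

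Shown here are 4 sites more than 2 kb from a TSS, chosen because at least 6 of the 8 factors were called higher with KLA at each. The sequences are 200 bases around the center of the NCoR peak, on the plus strand of GRCm38.p6 (mm10). None overlaps an annotated exon. Capitals mark matches to 4 motifs searched on both strands: STAT (TTCNNNGAA), AP-1 (TGANTCA), PU.1 (GAGGAAGT) and the NFκB consensus. No match overlaps another. The site at Socs1 +108.7 kb (chr16:10676763-10676962) lies inside an intron of Clec16a and holds a STAT match at base 9.
Socs1 +108.7 kb: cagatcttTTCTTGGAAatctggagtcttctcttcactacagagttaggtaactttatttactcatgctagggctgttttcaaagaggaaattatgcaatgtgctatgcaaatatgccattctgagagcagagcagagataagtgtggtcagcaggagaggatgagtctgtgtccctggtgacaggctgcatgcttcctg
The other 3 sites belong to Socs3. The site at -8.6 kb (chr11:117977903-117978102) is intergenic and holds an NFκB match at base 36 beside a PU.1 match at base 47.
Socs3 -8.6 kb: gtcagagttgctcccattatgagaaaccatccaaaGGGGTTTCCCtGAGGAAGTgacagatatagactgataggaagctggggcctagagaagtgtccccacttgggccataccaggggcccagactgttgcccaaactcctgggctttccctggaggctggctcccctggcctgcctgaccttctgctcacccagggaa
The site at -6.9 kb (chr11:117976155-117976354) is intergenic, with a STAT match at base 71.
Socs3 -6.9 kb: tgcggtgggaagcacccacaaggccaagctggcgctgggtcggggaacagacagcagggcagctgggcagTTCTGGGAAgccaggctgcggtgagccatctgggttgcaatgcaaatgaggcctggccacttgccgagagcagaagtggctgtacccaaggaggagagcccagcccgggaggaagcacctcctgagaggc
The site at +4.0 kb (chr11:117965269-117965468) lies just past the end of the gene, with a STAT match at base 74.
Socs3 +4.0 kb: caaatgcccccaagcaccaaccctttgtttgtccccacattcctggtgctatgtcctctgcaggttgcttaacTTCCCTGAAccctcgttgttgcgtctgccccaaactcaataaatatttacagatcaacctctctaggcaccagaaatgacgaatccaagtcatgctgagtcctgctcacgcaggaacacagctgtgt

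Over all NCoR peaks of the family, 13 of 59 windows of 200 bases held the STAT match (22%), against 7.97% of 55038 NCoR windows in the table. Of these 13, Socs3 had 5, Socs6 had 3, Socs1 and Cish had 2 each, and Socs2 had 1. The AP-1 match was in 15 of 59 (25.4% against 20.9%), PU.1 in 5 (8.47% against 10.7%) and NFκB in 2 (3.39% against 5.35%). At p65 peaks, the STAT match was in 8 of 52 windows (15.4% against 7.55%) and NFκB in 5 (9.62% against 7.61%). Peaks of 1 locus can share a sequence, and a match describes only the letters of a window.

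To ask how TLR4 engagement changed the SOCS loci, KLA was compared with Veh for the 8 factors. The family split by gene. Every call near Socs3, Cish and Socs7 was for higher binding with KLA, whereas Socs6 had calls of both kinds. All calls for lower binding came from Socs6 except 1 at Socs1, 1 at Socs2 and 2 at Socs5. NCoR was called higher at 24 and lower at 5 of 59 peaks, against a background of 23.4% and 16.7% of all NCoR peaks. HDAC3 was higher at 26 and lower at 5 of 54 (background 27.5% and 11.3%). PGC1β was higher at 8 and lower at 3 of 33 (background 16.4% and 6.35%). p300 was higher at 47 and lower at 7 of 74 (background 42.1% and 12.9%), and with TMM the split was 37 and 14 (background 32.7% and 23.9%). ERK1 was higher at 12 and lower at 1 of 30 (background 10.3% and 2.53%). p65 was higher at 41 and lower at 3 of 52 (background 57.0% and 5.43%), and 27 and 3 with TMM (background 27.6% and 21.3%). Fosl2 was higher at 9 and lower at 2 of 33 (background 11.4% and 4.19%). PU.1 was higher at 3 and lower at 5 of 37 (background 4.53% and 21.7%), and 8 and 5 with TMM (background 9.13% and 10.6%).

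The median log2 fold change of the family exceeded that of all peaks for each of the 8 factors, for example 0.38 against 0.10 for NCoR, 0.98 against 0.27 for HDAC3, 1.45 against 0.26 for ERK1 and 2.54 against 1.46 for p65. The share called higher was above the background for each factor, and the share called lower was below it for NCoR, HDAC3, p300 and PU.1 and a little above it for the other 4. These shares were not tested, and neighboring peaks of 1 locus are not independent. The counts depended on single libraries for some factors. Called peaks fell from 29 to 17 for NCoR without KLA replicate 1 or 2, from 31 to 17 or 18 for HDAC3 without Veh replicate 1 or 2, from 11 to 5 or 7 for PGC1β without Veh replicate 1 or 2, and from 44 to 27 for p65 without KLA replicate 2. For Fosl2 the 11 calls became 0 without Veh replicate 1 or 2 and 19 without KLA replicate 1, the library with the fewest tags (4.30 M).

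**Figure D1:**
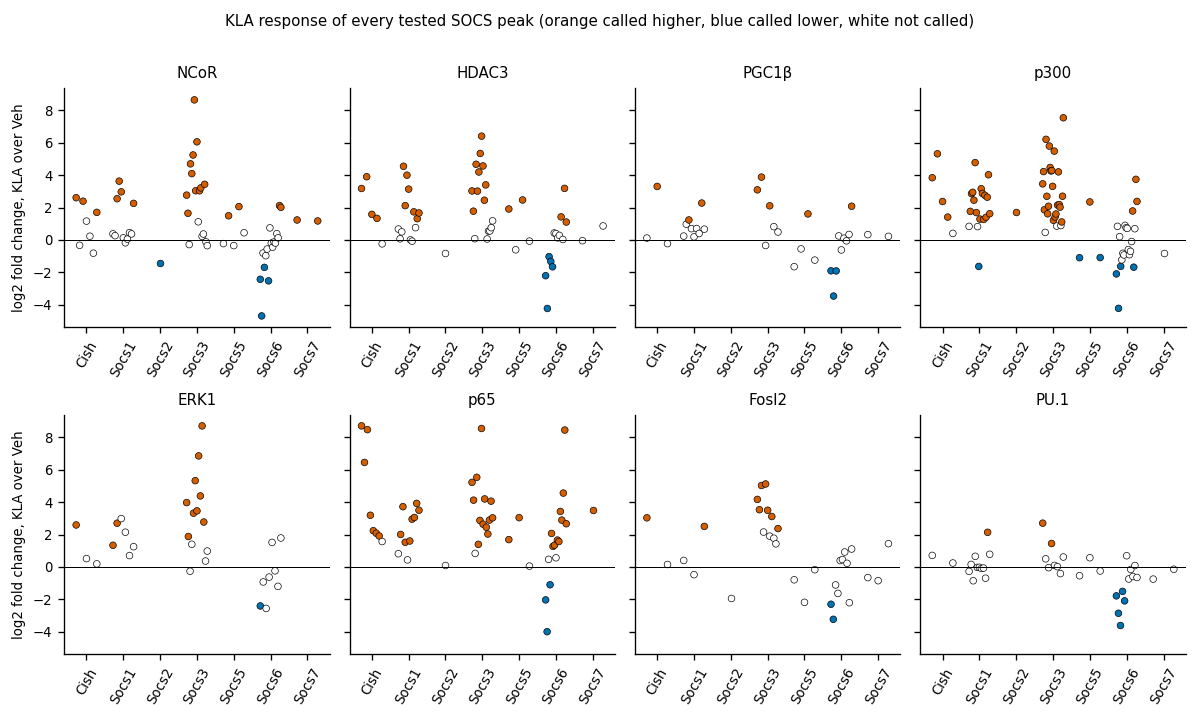
Log2 fold change (KLA over Veh) of every tested SOCS peak for 8 factors, with 1 point a peak, grouped by gene (orange, called higher; blue, called lower; white, not called). The Socs3 points lie mostly above 0 with none called lower, and the Socs6 points lie on both sides.

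When peaks of different factors within 500 bp were joined, the family had 92 sites. KLA raised at least 1 factor at 58 sites (63% against 42.1% of 102070 joined sites over all genes) and lowered at least 1 at 12 (13% against 22.5%). Of the 92 sites, 0 had factors called in opposite directions, against 1.67% of all. These shares were not tested. At Socs3, 20 of 22 sites had a factor called higher and none had one called lower. Cish had 5 of 7 sites with a factor higher and 0 lower, Socs1 had 17 of 23 higher and 1 lower, and Socs6 had 9 of 25 higher and 8 lower. Peaks of all 8 factors met at 6 sites (6.52%), which is below the 11.7% of all joined sites: Socs3 -8.6, +9.1 and +22.6 kb, Socs6 -38.1 and +48.4 kb, and Cish +16.7 kb. The number was 6 of 120 with a joining distance of 100 bp and 8 of 78 with 1000 bp.

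Socs3, the feedback inhibitor of gp130 receptors, had the most regions and the most peaks called higher. KLA was called higher at 11 of 17 NCoR peaks, 10 of 16 HDAC3 peaks, 3 of 6 PGC1β peaks, 23 of 26 p300 peaks, 9 of 13 ERK1 peaks, 13 of 14 p65 peaks, 7 of 11 Fosl2 peaks and 2 of 8 PU.1 peaks, and none was called lower. In the same order, the backgrounds for higher calls were 23.4%, 27.5%, 16.4%, 42.1%, 10.3%, 57.0%, 11.4% and 4.53%. At -8.6 kb, the first Socs3 sequence printed above, all 8 factors were higher. NCoR had 50.2 and 64.7 tags with Veh and 404 and 379 with KLA (log2 fold change 2.77 ± 0.21, adjusted p = 3.31e-05). HDAC3 had 37.1 and 73.5 tags with Veh and 301 and 616 with KLA (3.02 ± 0.41), and this call was lost without Veh replicate 1. PGC1β went from 13.5 and 4.65 to 87.4 and 65.2 tags (3.09 ± 0.44). In each of these 3 experiments both KLA libraries stood above both Veh libraries.

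The DNA-binding factors and the enzymes moved the same way at -8.6 kb. p65 had 18.4 and 7.46 tags with Veh and 482 and 501 with KLA (5.22 ± 0.31, adjusted p = 7.91e-07). Fosl2 had 26.8 and 22 tags with Veh and 328 and 551 with KLA (4.17 ± 0.78), a call lost without Veh replicate 1 or Veh replicate 2. PU.1, which was called higher at few SOCS peaks, went from 23.8 and 29.9 to 163 and 184 tags here (2.70 ± 0.16). The acetyltransferase p300 went from 48.9 and 39.4 to 480.3 and 495 tags (3.46 ± 0.16) and ERK1 from 4.72 and 6.94 to 91 and 101 (3.97 ± 0.52). No Veh library reached a KLA library for any of these 5.

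At the Socs3 promoter, NCoR had 1.19 and 23.5 tags with Veh and 245 and 185 with KLA (4.10 ± 0.54, adjusted p = 2.95e-04). HDAC3 (3.01 ± 0.40), PGC1β (2.11 ± 0.39), p300 (1.61 ± 0.26), ERK1 (3.32 ± 0.56) and p65 (2.87 ± 0.33) were called higher there as well, and Fosl2 was not (2.15 ± 0.86, adjusted p = 0.0718, called with TMM). The PGC1β call was lost without Veh replicate 2. Just upstream, 1.9 kb from the TSS, a second cluster was almost empty with Veh. NCoR had 0 and 3.53 tags there with Veh and 57.5 and 40.8 with KLA (4.70 ± 0.75). HDAC3 had 0.727 and 4.98 tags with Veh and 55.1 and 111 with KLA (4.67 ± 0.57). p300 had 3.13 and 0 tags with Veh and 131 and 117 with KLA (6.21 ± 0.47), so for these factors KLA libraries stood well above the few tags with Veh.

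A stretch from the 3' untranslated end of Socs3 to past the gene also gained binding from near 0. ERK1 had peaks at +2.2, +2.7, +3.6, +4.0 and +4.5 kb, and all 5 were called higher. At +3.6 kb ERK1 had 1.57 and 0 tags with Veh and 82.4 and 112 with KLA. HDAC3 at +3.6 kb had 2.18 and 0.553 tags with Veh and 108 and 125 with KLA (6.41 ± 0.60). Both factors were thus near or below the value of 3 tags with Veh. NCoR at +3.7 kb had no tags in either Veh library and 52.6 and 39.4 with KLA, at least 25.9-fold higher against a floor of 3 tags over both Veh libraries. By the same floor ERK1 at +4.5 kb was at least 34.2-fold higher, p65 at +4.4 kb at least 26.7-fold and p300 at +42.0 kb at least 14-fold. At +4.0 kb, the last sequence printed, NCoR had 0 and 8.24 tags with Veh and 36.4 and 33.2 with KLA, and this call was lost without KLA replicate 1 or KLA replicate 2.

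At 2 distal Socs3 sites with many tags, NCoR and HDAC3 were not called, as the plot of tags along the locus shows. At +9.1 kb NCoR was already high with Veh, with 275 and 317 tags, and had 337 and 349 with KLA (0.21 ± 0.17, not called). HDAC3 had 309 and 287 tags with Veh and 282 and 339 with KLA (0.06 ± 0.39, not called). At +22.6 kb NCoR had 289 and 346 tags with Veh and 298 and 286 with KLA (-0.12 ± 0.17, not called). The value depended on the region counted. In the regions of the ERK inhibitor experiment, the same NCoR libraries had 350 and 468 tags with Veh at +22.7 kb. With KLA they had 539 and 478 there, and this difference was not tested. HDAC3 had 463 and 431 tags with Veh and 478 and 839 with KLA at +22.7 kb (0.55 ± 0.44, not called). p65 rose at both sites, from 114 and 96 to 552 and 598 tags at +9.1 kb (2.45 ± 0.19) and from 93.7 and 158 to 889.6 and 974 at +22.7 kb (2.89 ± 0.23). p300 rose as well, by 1.42 ± 0.13 and 2.18 ± 0.13 on the log2 scale, and the first of these was not called with TMM (0.90). A difference in KLA response between sites was not tested.

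**Figure D2:**
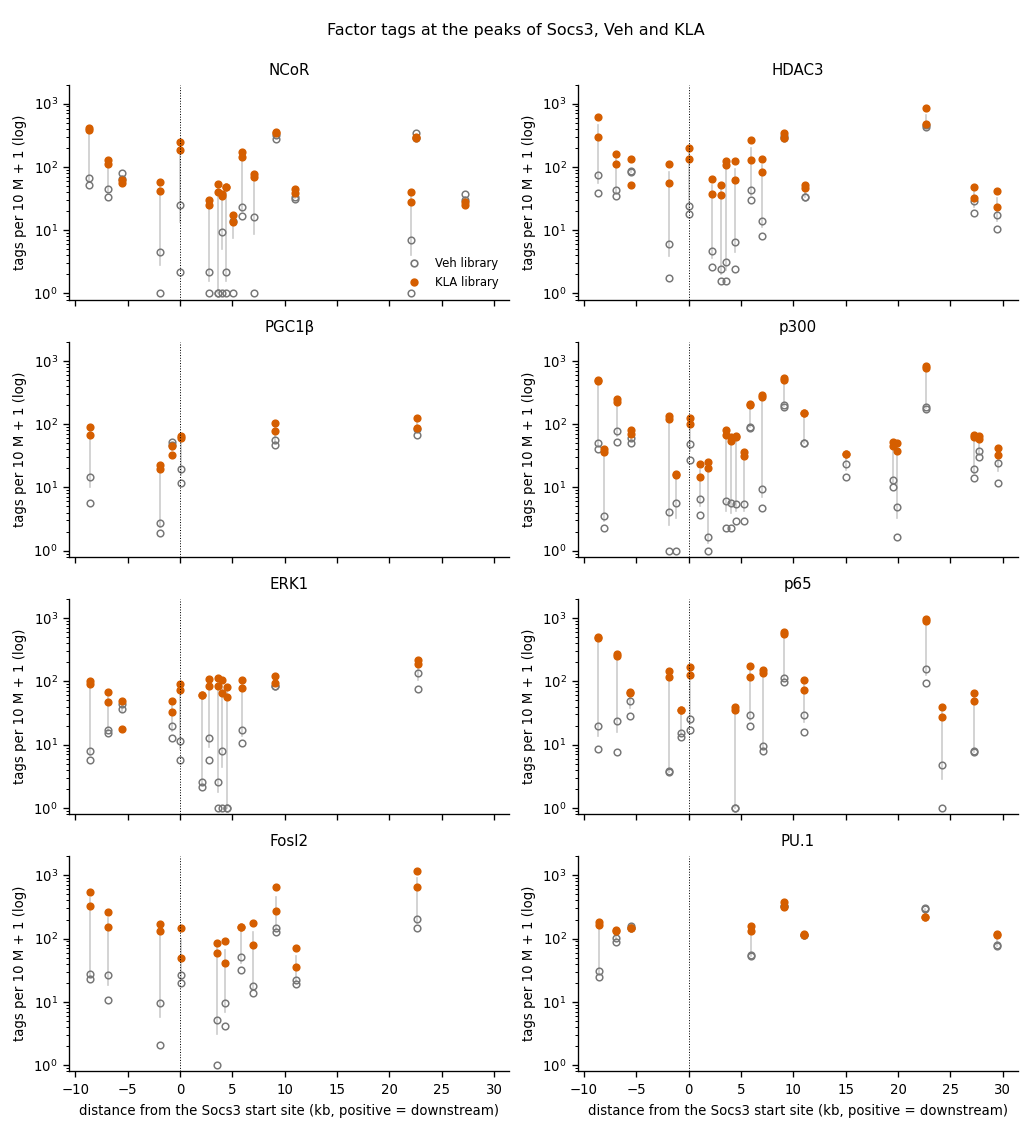
Tags per 10 M plus 1 (log axis) at the Socs3 peaks of 8 factors against distance from the Socs3 TSS in kb, with 1 point a library (open, Veh; filled, KLA) and grey lines joining the group means. NCoR and HDAC3 separate by treatment at -8.6 kb, at the promoter and from +2.2 to +7.1 kb, and overlap or nearly meet at +9.1 and +22.6 kb, and 2 p300 peaks farther out (+33.5 and +42.0 kb) are not drawn.

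Cish, which encodes the SOCS protein CIS and is best known as a STAT5 target, gained binding at its promoter and around its 3' end. At the promoter (chr9:107296011-107296237), NCoR had 35.8 and 17.7 tags with Veh and 160.4 and 166 with KLA (2.61 ± 0.32, adjusted p = 2.15e-04). HDAC3 had 21.1 and 23.2 tags with Veh and 133 and 277 with KLA (3.18 ± 0.40). p65 had 0 and 2.80 tags with Veh and 125 and 130.0 with KLA (6.46 ± 0.58), and p300 rose by 3.84 ± 0.39 on the log2 scale. The groups did not overlap for any of these 4. ERK1 (2.59 ± 0.67) and Fosl2 (3.03 ± 0.93) were also called, but each lost the call when either of 2 libraries was left out (Veh replicate 1 or KLA replicate 1 for ERK1, Veh replicate 1 or Veh replicate 2 for Fosl2). The NCoR peak on the TSS itself did not pass (39.4 and 63.6 against 36.4 and 45 tags, -0.34 ± 0.36). p65 was at 0 with Veh in 2 further peaks, and was at least 29.9-fold higher with KLA -909 bp from the TSS and at least 25.4-fold higher at +6.7 kb. At +16.3 kb, HDAC3, p300 and p65 were called higher and NCoR was not (59.7 and 105 against 115 and 78.2 tags), and the p300 and p65 calls were lost with TMM. The HDAC3 call there was also lost without Veh replicate 1 or Veh replicate 2 or KLA replicate 2, and the p65 call without KLA replicate 2.

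Socs1, the main brake on interferon signaling in macrophages, gained binding at its promoter and at distal sites. Of its factor peaks, 37 lie inside Clec16a, a neighboring gene. At +108.7 kb, the Clec16a intron site printed above, all factors with a peak were called higher, that is all but ERK1. NCoR had 44.2 and 21.2 tags with Veh and 163 and 150.1 with KLA (2.26 ± 0.32, adjusted p = 4.57e-04). p65 had 6.13 and 38.2 tags with Veh and 236 and 261 with KLA (3.50 ± 0.47). PU.1 had 21.7 and 23 tags with Veh and 101 and 96.2 with KLA (2.14 ± 0.20), and none of these 3 groups overlapped. The HDAC3 call (1.66 ± 0.37) was lost without Veh replicate 1 or Veh replicate 2, and the Fosl2 call (2.50 ± 0.77) without Veh replicate 1 or Veh replicate 2 or KLA replicate 2. At the Socs1 TSS, NCoR had 77.7 and 83.6 tags with Veh and 90.7 and 102 with KLA (0.26 ± 0.25, not called), but in the intron next to it 21.5 and 9.42 tags with Veh and 94 and 87.2 with KLA (2.54 ± 0.40, called). At the 3' end of the gene, +2.3 kb from the TSS, HDAC3 had 3.64 and 1.11 tags with Veh and 41.6 and 70.2 with KLA (4.55 ± 0.67). p65 had 7.88 and 0 tags with Veh and 58.1 and 50.6 with KLA (3.72 ± 0.72). At +30.8 kb, the distal Socs1 site with the most NCoR tags with Veh, NCoR (-0.18 ± 0.22) and HDAC3 (137 and 139 to 118 and 162 tags) were not called and p65 was (1.52 ± 0.32), a call lost with TMM (0.32) and without KLA replicate 1.

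Socs2, the regulator of growth hormone signaling, was the only family member outside Socs6 with an NCoR peak called lower. At its promoter (chr10:95416784-95417008), NCoR had 182 and 189 tags with Veh and 60.7 and 78.2 with KLA (-1.41 ± 0.23, adjusted p = 8.63e-04), and both KLA libraries lay below both Veh libraries. The call was kept when each library was left out. HDAC3 had 178 and 173 tags with Veh and 98.5 and 104 with KLA (-0.80 ± 0.36, adjusted p = 0.0639) and was called with TMM (-1.01) and by DESeq2's Wald test. Fosl2 had 40.9 and 43 tags with Veh and 14 and 8.18 with KLA (-1.95 ± 1.03). p65 had 14 and 28 tags with Veh and 16 and 28.7 with KLA (0.10 ± 0.53), and neither of these factors was called. The NCoR window of this promoter held the STAT match. The p300 peak of Socs2, at +29.4 kb, had few tags (7.52 and 0.657 tags with Veh and 12.3 and 15.7 with KLA) and was called higher (1.73 ± 0.67), but not with TMM nor without Veh replicate 2 or KLA replicate 1 or KLA replicate 2.

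Socs6, which binds the receptor kinase KIT, had the largest losses among the SOCS peaks. Its distances count from the TSS that the authors' annotation used, and a longer RefSeq model of the gene begins between -38.1 and -30.3 kb. At -30.3 kb, NCoR fell from 228 and 207 tags to 12.2 and 4.84 (-4.70 ± 0.35, adjusted p = 3.07e-05) and HDAC3 from 159 and 164 to 9.96 and 5.27 (-4.24 ± 0.47). PU.1 fell from 45.5 and 43.6 to 3.93 and 3.19 (-3.62 ± 0.33), and p300 from 61.4 and 49.3 to 5.12 and 0.540 (-4.23 ± 0.54). p65 fell from 31.5 and 69 to 6.01 and 0 (-4.0 ± 0.82). Every KLA library was below every Veh library for these 5, and PGC1β and Fosl2 were called lower too (PGC1β not without Veh replicate 2, Fosl2 not without Veh replicate 1 or Veh replicate 2). At -38.1 kb all 8 factors were called lower, with NCoR from 103 and 139 to 28.3 and 16.6 (-2.44 ± 0.34), HDAC3 from 175 and 135 to 26.4 and 43.9 (-2.21 ± 0.40) and ERK1 from 66.1 and 85.6 to 17.2 and 10.9 (-2.41 ± 0.50). The ERK1 call was lost without KLA replicate 2, the p65 call without KLA replicate 2, the PGC1β call without Veh replicate 1 and the Fosl2 call without Veh replicate 1 or Veh replicate 2. PU.1 was lower at 5 of 11 peaks and higher at 0 (background 21.7% and 4.53%). Those lower included +27.6 kb (85.8 and 104 to 19.6 and 24.2 tags, -2.10 ± 0.20) and the promoter (87.9 and 62.2 to 24.2 and 28.7, -1.52 ± 0.21).

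Other Socs6 peaks were not called or were higher. At +48.4 kb, a site of all 8 factors, NCoR had 206 and 287 tags with Veh and 213 and 216 with KLA (-0.20 ± 0.20, not called), and p65 was called higher (2.07 ± 0.31), but not with TMM (0.83). Far downstream, at +361.4 kb, NCoR rose from 13.1 and 25.9 to 74.5 and 83.7 tags (2.01 ± 0.38), p65 from 12.3 and 6.53 to 62.1 and 58.8 (2.67 ± 0.45), and p300 was also called higher (2.38 ± 0.53). PGC1β was called there but not without Veh replicate 1, and HDAC3 not with TMM nor without Veh replicate 1 or Veh replicate 2 or KLA replicate 2. p65 was higher at 10 and lower at 3 of 15 Socs6 peaks (background 57.0% and 5.43%). At +349.8 kb, where both Veh libraries held 0 tags, p65 was at least 25-fold higher. With TMM the p65 peaks at +48.4, +55.7, +56.0, +70.2 and +73.9 kb were no longer called.

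Socs5 and Socs7 had few peaks. At Socs5, NCoR was called higher at 2 of 5 peaks (background 23.4%), HDAC3 at 2 of 4 (27.5%), PGC1β at 1 of 4 (16.4%) and p65 at 2 of 3 (57.0%). p300 was higher at 1 and lower at 2 of its 3 Socs5 peaks (background 42.1% and 12.9%). NCoR was called higher at 2 of 2 Socs7 peaks and HDAC3 at 0 of 2. These shares were not tested against the background. HDAC3 at Socs5 -23.8 kb rose from 25.5 and 37.1 to 90.3 and 151 tags. At Socs5 +2.6 kb, in an intron (chr17:87110132-87110355), p65 rose from 12.3 and 6.53 to 75.5 and 81.4 tags (3.04 ± 0.42) and p300 from 16.9 and 10.5 to 79.3 and 61.1 (2.34 ± 0.34). HDAC3 was also called higher there (2.47 ± 0.42, lost without Veh replicate 1), as were NCoR (2.06 ± 0.72, lost without KLA replicate 1 or KLA replicate 2) and PGC1β (1.60 ± 0.46, lost without Veh replicate 1 or Veh replicate 2 or KLA replicate 2). At the Socs5 promoter p300 fell from 50.1 and 37.5 to 27.1 and 13.5 tags (-1.10 ± 0.38, lost without Veh replicate 1 or KLA replicate 2), and NCoR was not called (-0.35 ± 0.34). At the Socs7 promoter, NCoR had 19.1 and 17.7 tags with Veh and 49.4 and 37.4 with KLA (1.23 ± 0.41), a call lost without KLA replicate 1 or KLA replicate 2, and HDAC3 was not called (-0.05 ± 0.42). Past the end of Socs7, at +39.3 kb, p65 rose from 5.25 and 12.1 to 94.8 and 105 tags (3.52 ± 0.42), its only p65 peak.

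Socs4 had no region. Its TSS and that of Wdhd1 lie close together on opposite strands. Within 1 kb of the Socs4 TSS (chromosome 14, position 47276931, plus strand) there were 17 regions in 12 tables, all assigned to Wdhd1. They fall outside the rule, and these values were looked up after the absence was seen. H3K27ac there ranged from 47.6 to 81.3 tags in WT and NKO cells and from 47.4 to 251 in the 1 kb windows. It was called changed in 1 of 12 comparisons, lower with RGFP966 (log2 fold change -1.11, adjusted p = 1.93e-05), and these regions cannot be split between the 2 genes.

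To ask whether PGC1β binding with KLA also appeared in the separate experiment with DMSO, DMSO KLA was compared with DMSO Veh. PGC1β was called higher at 27 and lower at 0 of 62 SOCS peaks (background 16.4% and 1.23%). Socs3 gave 15 of its 20 peaks, Socs1 gave 6 of 15, Cish 3 of 8, Socs5 2 of 5 and Socs6 1 of 10. At Socs3 -8.6 kb PGC1β had 9.75 and 11.7 tags with DMSO Veh and 124 and 177 with DMSO KLA (3.83 ± 0.45, adjusted p = 1.8e-06). At Socs1 +83.0 kb it had 4.06 and 0 tags with DMSO Veh and 65.1 and 64 with DMSO KLA (4.63 ± 0.85). All these KLA libraries were above the Veh libraries.

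The ERK inhibitor was then compared with the solvent under KLA for PGC1β. By edgeR, PGC1β was called at 0 of 62 SOCS peaks in either direction (background 0.108% and 0.178%), with 8 peaks at an unadjusted p under 0.05 and 1 call by DESeq2's Wald test. Of these 8, the 4 Cish peaks and Socs1 +3.7 kb had more tags with the inhibitor, and Socs1 +83.0 kb and Socs6 +48.4 and +69.5 kb had fewer. These were named after their values were seen. At Socs1 +3.7 kb PGC1β had 0 and 0 tags with DMSO KLA and 31.3 and 27.2 with the inhibitor and KLA (at least 11.5-fold higher, edgeR adjusted p = 0.110), and this peak was the Wald call. At Cish, -933 bp from the TSS, PGC1β had 15.8 and 4.47 tags with DMSO KLA and 61 and 63.4 with the inhibitor and KLA (2.66 ± 0.81, adjusted p = 0.135).

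NCoR with the ERK inhibitor and KLA was compared with KLA alone. NCoR was called lower at 21 and higher at 0 of 65 SOCS peaks, against a background of 53.0% and 0.829%, so the share of SOCS peaks called lower was below that of all NCoR peaks (median log2 fold change -0.74 against -1.21). The inhibitor libraries carry a later library date than the KLA libraries, and the date and the inhibitor cannot be told apart. With TMM the calls turned to 9 higher and 3 lower (background 5.09% and 4.83%), with medians of 0.44 and -0.03. Outside Socs6, 0 of the peaks called lower kept that call with TMM.

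Socs6 had the most calls, with 12 of its 16 NCoR peaks called lower (background 53.0%). The 3 peaks called lower with TMM were all at Socs6. At +73.9 kb NCoR had 147 and 131 tags with KLA and 4.23 and 19 with the inhibitor and KLA (-3.58 ± 0.40, adjusted p = 1.14e-04, -2.40 with TMM). At +56.0 kb it had 105 and 94.1 tags with KLA and 11.8 and 19.8 with the inhibitor and KLA (-2.65 ± 0.32, -1.47 with TMM). Between Veh and KLA these peaks were not called, with log2 fold changes of 0.13 ± 0.21 and -0.13 ± 0.25. Socs5 had 4 of 5 peaks lower, Socs1 2 of 12, Socs7 1 of 2, Socs3 1 of 20 and Cish 1 of 9. At Socs3 -8.6 kb NCoR had 411 and 382 tags with KLA and 266 and 256 with the inhibitor and KLA (-0.60 ± 0.13, adjusted p = 0.00291, under 2-fold), and the Socs3 call, at +9.1 kb, was lost without ERKi KLA replicate 2. At the Cish promoter, -533 bp from the TSS, NCoR had 160.4 and 166 tags with KLA and 86.2 and 73.3 with the inhibitor and KLA (-1.03 ± 0.19), a call lost without ERKi KLA replicate 2 and turned to 0.15 by TMM. The peak on the Cish TSS had 38.1 and 45 tags with KLA and 76.9 and 73.3 with the inhibitor and KLA (0.85 ± 0.26, not called, and 2.03, called higher, with TMM).

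**Figure D3:**
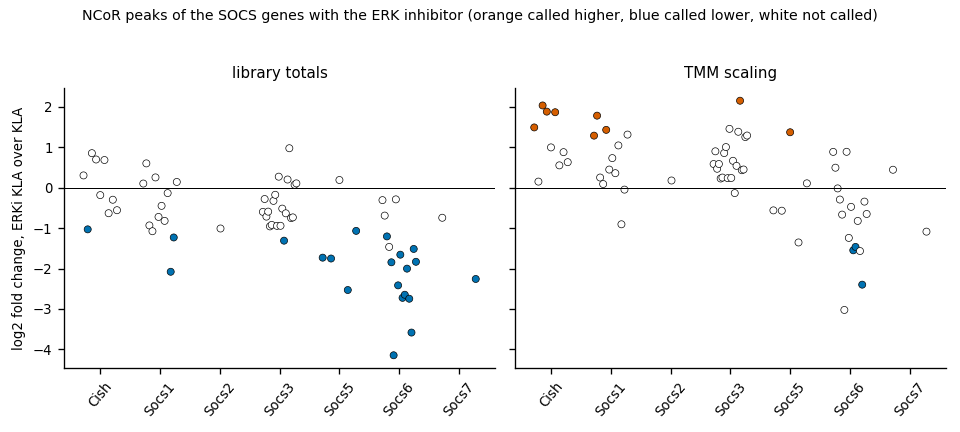
Log2 fold change of NCoR (ERK inhibitor with KLA over KLA) at every tested SOCS peak, with 1 point a peak, on library totals (left) and with TMM (right) (orange, called higher; blue, called lower; white, not called). TMM shifts all points up, from 0 higher and 21 lower to 9 higher and 3 lower, and Socs6 holds the lowest points in both panels.

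In osteoclast precursors, Day4 of RANKL was compared with Day0. The ERK1 library titled replicate 2 at Day4 is described as replicate 3 with another date, and its description lacks the NCoRWT line label that the other 3 ERK1 libraries carry. ERK1 was called at 0 of 13 SOCS peaks by edgeR (background 2.33% higher and 0.0267% lower), with 6 at an unadjusted p under 0.05 and 0 calls by the Wald test. It was called at 2 without Day0 replicate 1 and at 1 without Day0 replicate 2. p300 was called higher at 10 and lower at 0 of 15 peaks (background 62.2% and 0.248%), near the share of all p300 peaks, and the family median of 1.80 was close to that of all peaks (1.84). With TMM 0 were called (background 8.80% and 3.83%), and without Day4 replicate 1 or 2 the count was 3 or 1. At Socs6 -38.1 kb, where p300 fell with KLA in BMDMs, it had 29.9 and 8.52 tags at Day0 and 90.0 and 72.6 at Day4, and at Socs6 -30.4 kb 28.1 and 12.8 tags at Day0 and 61.6 and 48.8 at Day4.

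H3K27ac was next compared between KLA and Veh. In the narrow regions of the WT and NKO table (median 290 bp), KLA raised 5 and lowered 0 of 19 SOCS regions in WT cells (background 6.49% and 3.72%), with a family median of 0.81 against 0.13 for all regions. Of the 5, 4 belong to Socs3 and 1 to Cish. At Socs3 -6.9 kb H3K27ac rose from 2.52 and 2.04 to 59.1 and 58.6 tags (4.66 ± 0.52, adjusted p = 2.67e-09). It rose from 14.5 and 17.3 to 69.2 and 68.9 at +5.8 kb (2.11 ± 0.34) and from 65.6 and 81.5 to 161 and 179 at +9.5 kb (1.20 ± 0.19). The +7.0 kb call (1.81 ± 0.43) was lost without Veh replicate 2. At Cish, -925 bp from the TSS, both Veh libraries held 0 tags and H3K27ac was at least 11.8-fold higher with KLA (8.17 and 11.7 tags).

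In NKO cells KLA raised 7 and lowered 1 of the same 19 regions (background 2.75% and 7.96%). The same 4 Socs3 regions were called higher, with 3.69 and 1.74 tags with Veh and 30.3 and 13.9 with KLA at -6.9 kb (3.06 ± 0.55), and the other 3 were 2 Cish promoter regions and the Socs1 promoter. The Socs1 promoter had 87 and 82.4 tags with Veh and 194 and 204 with KLA (1.23 ± 0.17), and the region lowered was Socs1 +30.8 kb (19.9 and 36 to 5.84 and 12.5 tags, -1.65 ± 0.47). The Cish call at -925 bp was lost without any 1 of the 4 NKO libraries, that at -533 bp without NKO Veh replicate 1 or NKO KLA replicate 1 or NKO KLA replicate 2, that at Socs1 +30.8 kb without NKO Veh replicate 2 or NKO KLA replicate 1 and that at Socs3 +5.8 kb without NKO Veh replicate 1 or NKO Veh replicate 2 or NKO KLA replicate 2. Without NKO Veh replicate 1 the count of called regions was 5.

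NKO and WT cells were then compared directly. With Veh, 0 of 19 SOCS regions were called by edgeR (background 0.973% higher and 0.0270% lower; 2 at an unadjusted p under 0.05). Socs3 +9.5 kb had 65.6 and 81.5 tags in WT and 41.3 and 40.6 in NKO cells (-0.85 ± 0.21, adjusted p = 0.0223, under 2-fold), and it was called with TMM (-1.15) and the Wald test. With KLA, 0 of 19 were called (background 0.400% and 0.389%; 4 at an unadjusted p under 0.05; 0 by the Wald test; 1 without NKO Veh replicate 1 or 2). Socs3 -6.9 kb had 59.1 and 58.6 tags in WT and 30.3 and 13.9 in NKO cells (-1.39 ± 0.39, adjusted p = 0.0556). The Socs1 promoter went the other way, with 108 and 105 tags in WT and 194 and 204 in NKO cells (0.90 ± 0.17, adjusted p = 0.00221, under 2-fold). The test of the difference between the 2 KLA responses called 0 regions (background 0.0270% and 0.670%; 4 at an unadjusted p under 0.05). For the Socs1 promoter that difference was 0.75 ± 0.25 (adjusted p = 0.138; 1.09 with TMM, called, as it was by the Wald test), and for Socs3 -6.9 kb it was -1.59 ± 0.88 (adjusted p = 0.416).

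In the RGFP966 experiment the regions are windows of 1000 bp. DMSO KLA against DMSO Veh raised 6 and lowered 5 of 18 SOCS windows (background 6.73% and 28.1%), and with TMM 6 and 3 (background 12.5% and 17.2%). The 6 raised were all 3 Socs3 windows, both Cish windows and the Socs1 promoter, and the 5 lowered were all at Socs6. The Cish promoter window went from 6.64 and 8.72 to 82.9 and 58.9 tags (3.21 ± 0.36) and the Socs1 promoter from 130.4 and 156 to 515 and 428 (1.72 ± 0.21). The Socs3 promoter window went from 11.6 and 16.6 to 340.0 and 245 tags (4.37 ± 0.29), Socs3 +5.8 kb from 17.4 and 17.4 to 359 and 294 (4.22 ± 0.27) and Socs3 +22.7 kb from 54.8 and 73.3 to 551 and 473 (3.0 ± 0.22). In the WT and NKO table, whose regions are narrower, the regions at the Socs3 promoter and at +22.7 kb were not called (15.8 and 14.3 with Veh against 2.52 and 9.65 with KLA, and 9.46 and 12.2 against 6.29 and 7.58), so at these places the tables with wide and narrow regions differ. Socs6 -38.1 kb fell from 319 and 271 to 40.8 and 29.5 (-3.05 ± 0.24), whereas the narrow region there held few tags (5.67 and 7.13 with Veh and 8.17 and 4.14 with KLA in WT cells) and was not called. The calls at Socs6 +69.5 kb and the Socs6 promoter were lost with TMM and without DMSO KLA replicate 2, the former also without DMSO Veh replicate 1.

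The HDAC3 inhibitor was then compared with DMSO under KLA. H3K27ac was higher with RGFP966 at most Socs6 windows and lower at the Socs1 promoter and Socs3 +22.7 kb. In all it was higher at 8 and lower at 3 of 18 windows (background 26.9% and 9.53%), and 5 and 4 with TMM (background 16.1% and 18.9%). The DMSO KLA libraries are shared by both comparisons, so the values are given side by side. Socs6 gave 6 of the 8 higher calls. Socs6 -38.1 kb had 319 and 271 tags with DMSO Veh, 40.8 and 29.5 with DMSO KLA and 203 and 161 with RGFP966 and KLA (RGFP966 against DMSO KLA 2.35 ± 0.25, adjusted p = 5.86e-19). Socs6 +56.0 kb had 166 and 150.0, then 58.3 and 52.2, then 179.7 and 149.7 (1.57 ± 0.24). Socs6 +48.5 kb had 18.3 and 26.2, then 22 and 26.9, then 88.2 and 58.3 (1.59 ± 0.29), and there RGFP966 exceeded both other groups. Socs1 +30.8 kb was also higher (92 and 48 to 161 and 154 tags, 1.15 ± 0.23), but not with TMM (0.81) or without DMSO KLA replicate 2. The calls at Socs1 +61.5 kb, Socs6 +42.9 kb and Socs6 -24.9 kb rested on fewer tags. The first was lost with TMM (0.88) and without DMSO KLA replicate 1 or RGFP966 KLA replicate 2, the next with TMM (1.68, no longer past the adjusted p) and without DMSO KLA replicate 1 or DMSO KLA replicate 2, and the last without DMSO KLA replicate 2 or RGFP966 KLA replicate 1.

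The windows lowered by RGFP966 were Socs3 +22.7 kb, the Socs1 promoter and the Socs7 promoter. Socs3 +22.7 kb went from 551 and 473 to 240.2 and 232 tags (-1.12 ± 0.20, adjusted p = 1.02e-07). The Socs1 promoter went from 515 and 428 to 228 and 222 (-1.07 ± 0.20, lost without DMSO KLA replicate 1) and the Socs7 promoter from 105 and 78.3 to 51.3 and 36.6 (-1.06 ± 0.25, lost without DMSO KLA replicate 1 or RGFP966 KLA replicate 2). The Socs3 promoter had 340.0 and 245 tags with DMSO KLA and 159 and 141 with RGFP966 and KLA (-0.97 ± 0.21, adjusted p = 1.56e-05), just under 2-fold, and was called with TMM (-1.31). All 3 RGFP966-lowered windows and the Socs3 promoter had RGFP966 libraries below both DMSO KLA libraries. The Cish promoter had more tags with RGFP966, 82.9 and 58.9 against 138 and 131 (0.91 ± 0.23, adjusted p = 3.2e-04, under 2-fold). The summed promoter H3K27ac of the 9 macrophage markers was 3881 to 3897 tags with DMSO Veh, 3493 to 4257 with DMSO KLA and 2749.7 to 3195 with RGFP966 and KLA. That of the neutrophil markers (S100a8 alone had a region) was 56.5 to 58.4, 17.7 to 35 and 77.2 to 81, in the same order. The osteoclast markers (Nfatc1 alone had a region) had 93.9 to 99.4 tags with DMSO Veh, 33.7 to 61.5 with DMSO KLA and 29.6 to 32.5 with RGFP966 and KLA. The part of these markers in the results was not tested.

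**Figure D4:**
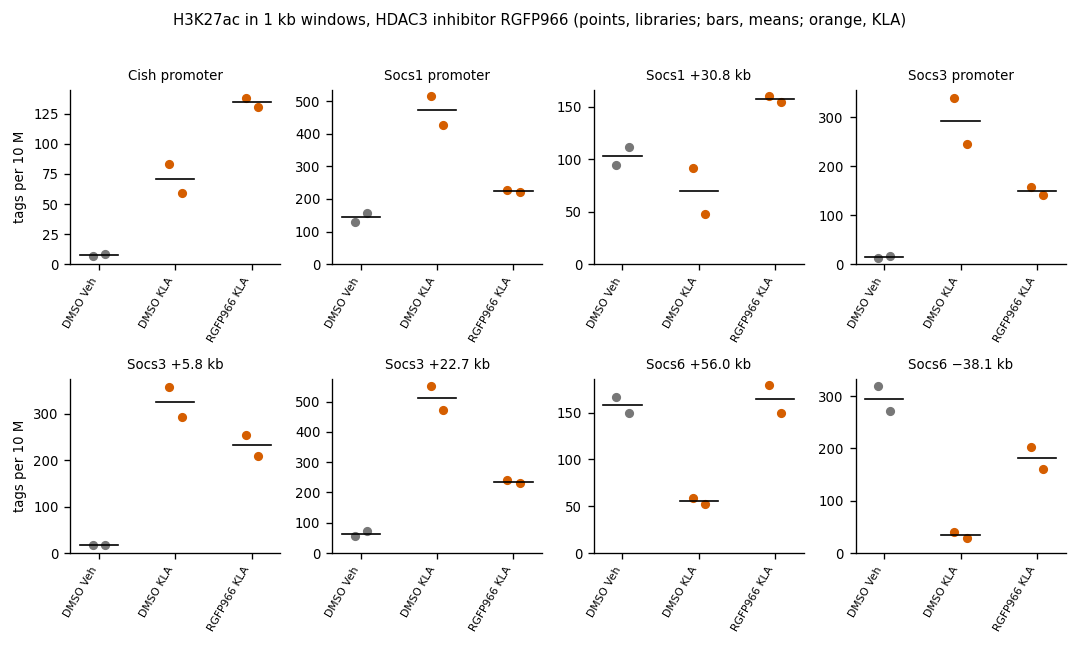
H3K27ac in tags per 10 M in 8 SOCS windows of 1 kb for DMSO Veh (grey), DMSO KLA and RGFP966 with KLA (both orange), with points for libraries and bars for means. The 2 Socs6 windows drawn (+56.0 and -38.1 kb) fall with KLA and are higher with RGFP966, and the Socs1 and Socs3 promoter windows rise with KLA and lie lower with RGFP966.

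To ask whether PGC1β was needed for these H3K27ac levels, Pgc1b flox Cre cells were compared with Pgc1b flox cells. KLA raised 5 and lowered 2 of 18 windows in flox cells (background 5.22% and 25.6%; 5 and 1 with TMM, background 9.84% and 13.8%) and raised 5 and lowered 2 in flox Cre cells (background 4.18% and 32.5%). In both, the 5 raised were the Cish promoter, the Socs1 promoter and the 3 Socs3 windows, and Socs6 -38.1 kb was lowered. The Socs3 promoter went from 14 and 11.8 to 285 and 269.8 tags in flox cells (4.41 ± 0.21) and from 9.35 and 5.31 to 160.4 and 134 in flox Cre cells (4.30 ± 0.25). Socs6 -38.1 kb went from 222 and 258 to 39.2 and 34.1 (-2.71 ± 0.17) and from 240.1 and 190.4 to 41.2 and 33.9 (-2.53 ± 0.17). The other window lowered was Socs6 -24.9 kb in flox cells, a call lost without Pgc1b flox Veh replicate 2 or Pgc1b flox KLA replicate 1, and Socs1 +30.8 kb in flox Cre cells. With Veh, 0 of 18 windows differed between the genotypes by edgeR (background 0.107% and 0.290%; 7 at an unadjusted p under 0.05; 0 by the Wald test; 1 without flox Veh replicate 2).

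With KLA, 2 of 18 windows were lower in flox Cre cells and 0 higher (background 6.81% and 0.702%). With TMM 1 was lower and 0 higher (background 1.08% and 1.9%). On library totals the median log2 fold change was -0.38 for all windows and -0.35 for the SOCS windows. With TMM that of all windows was 0.01. Socs1 +30.8 kb had 105 and 102 tags in flox and 33.2 and 26.7 in flox Cre cells (-1.79 ± 0.20, adjusted p = 8.87e-17). It had 152 and 180.1 with Veh in flox cells and 159.6 and 142 with Veh in flox Cre cells, where the groups overlapped. The test of the difference between the KLA responses gave -1.66 ± 0.25 (adjusted p = 4.48e-09; -1.47 with TMM), and the call was kept in all 8 fits without 1 library. Socs3 +5.8 kb had 152 and 161 tags in flox and 72.2 and 78.8 in flox Cre cells (-1.05 ± 0.19), a call lost with TMM (-0.66) and without Pgc1b flox Cre KLA replicate 1. The Socs3 promoter had 285 and 269.8 tags in flox and 160.4 and 134 in flox Cre cells (-0.92 ± 0.15, adjusted p = 4.11e-09, under 2-fold). The Socs1 promoter had 572 and 579 tags in flox and 571 and 573 in flox Cre cells (-0.01 ± 0.08), with the groups overlapping. Both promoter values are on library totals and are not adjusted for the median of -0.38 over all windows.

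The test of the difference between the KLA responses called 1 window higher and 1 lower (background 0.770% and 4.60%), the lower one being Socs1 +30.8 kb. The other was the Cish promoter, where KLA took flox cells from 19.1 and 7.62 to 163 and 154 tags and flox Cre cells from 5.61 and 9.29 to 196 and 199 (difference 1.22 ± 0.42, adjusted p = 0.0247). This call was lost without Pgc1b flox Veh replicate 1 or Pgc1b flox KLA replicate 2 or Pgc1b flox Cre Veh replicate 1 (adjusted p up to 0.764). The Socs3 windows at the promoter and +5.8 kb were not called in this test (-0.11 ± 0.46 and -0.36 ± 0.46, adjusted p = 0.914 and 0.666). The summed promoter H3K27ac of the 9 macrophage markers was 3747 to 3853 tags in flox and 2013 in both flox Cre libraries with KLA, and 3479 to 3490.1 and 2978 to 2981 with Veh. That of the osteoclast markers (Nfatc1 alone) was 76.3 to 80.2 in flox and 42.6 to 46.2 in flox Cre cells with KLA, and 176 to 197 and 148 to 161 with Veh. In WT and NKO cells the sum over Ocstamp and Nfatc1 was also lower with KLA, from 105 to 112 down to 56 to 57.9 and from 73.7 to 125 down to 50.7 to 61.1. The part of these markers in the results was not tested.

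**Figure D5:**
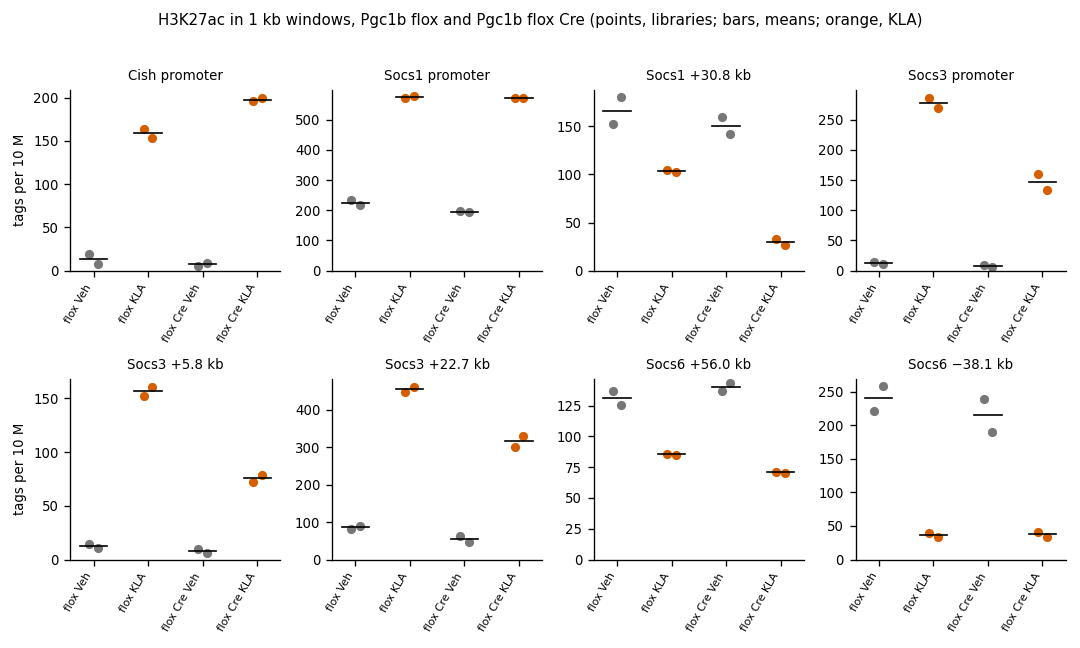
H3K27ac in tags per 10 M in 8 SOCS windows of 1 kb for Pgc1b flox and Pgc1b flox Cre cells with Veh (grey) or KLA (orange), with points for libraries and bars for means. At Socs1 +30.8 kb the flox Cre KLA libraries lie lowest, and at the Socs1 promoter the KLA libraries of both genotypes lie together.

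The other genes of the pathway were counted from 5 lists of cytokine receptors, JAKs, STATs, other JAK-STAT inhibitors and SOCS box ligase subunits. Over all of them, KLA called NCoR higher at 84 and lower at 49 of 310 peaks (27.1% and 15.8%), against 23.4% and 16.7% of all peaks. p65 was higher at 163 and lower at 14 of 279 (58.4% and 5.02% against 57.0% and 5.43%). p300 was higher at 139 and lower at 55 of 352 (39.5% and 15.6% against 42.1% and 12.9%). For NCoR, p65 and p300 the pooled shares were near those of all peaks. The pooled share called higher was 34.3% for HDAC3 (27.5% of all peaks), 21.2% for PGC1β (16.4%) and 16.8% for Fosl2 (11.4%). It was 7.14% for PU.1 (4.53% of all peaks) and 9.49% for ERK1 (10.3%). The lists differed, and this was not tested. p65 was higher at 73.5% of JAK peaks, 68.4% of STAT, 63.2% of other inhibitor, 52.8% of receptor and 25% of ligase subunit peaks. p300 was higher at 60%, 42.9%, 44.0%, 31.9% and 31.3% of the peaks of these lists, in the same order. By list, NCoR was higher at 14 and lower at 6 of 38 peaks of the 4 JAKs, at 12 and 4 of 39 of the 7 STATs, at 30 and 12 of 80 of the other inhibitors, at 25 and 23 of 135 of the receptors and at 3 and 4 of 18 of the ligase subunits. HDAC3 was higher at 19 of 34 JAK peaks (55.9% against 27.5% of all), with a median log2 fold change of 1.32 against 0.98 for the SOCS genes and 0.27 for all. The ligase subunits had an HDAC3 median of 0.03. The JAK median also exceeded that of the SOCS genes for NCoR (0.78 against 0.38) and PGC1β (1.24 against 0.32). The same held for p65 (2.62 against 2.54), Fosl2 (1.32 against 0.45) and PU.1 (-0.002 against -0.075). It was below that of the SOCS genes for p300 (1.60 against 1.65) and ERK1 (0.73 against 1.45). A higher median than that of all peaks was thus not particular to the SOCS genes. For H3K27ac, DMSO KLA raised 15 and lowered 23 of 97 pathway windows (15.5% and 23.7% against 6.73% and 28.1% of all). RGFP966 raised 17 and lowered 10 (17.5% and 10.3% against 26.9% and 9.53%). Pgc1b flox Cre cells with KLA were higher at 0 and lower at 9 (0% and 9.28% against 0.702% and 6.81%).

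As a description, promoter H3K27ac over the 11 group means of the 3 experiments was compared with that of about 3758 other genes. The Socs1 promoter was most like those of Trim30a (Pearson r = 0.986), Pnpt1 (0.982) and Tbk1 (0.978). Cish was most like Slc2a6 (0.959), Lgals9 (0.955) and Enpp4 (0.95), and Socs3 like Fam49b (0.944), Tmem243 (0.940) and St7 (0.938). Socs5 was most like Tmem41b (0.983), Socs6 like Actr8 (0.973) and Socs7 like Ppp2r5a (0.977). The groups share tables and treatments, so these values are not independent. Regions of the WT and NKO experiment were narrower (median 290 bp) than the 1 kb windows of the other experiments. The part of table and region width in these correlations was not tested.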

How the data were processed

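The deposited tables hold raw tag counts per region, which the authors made with Bowtie2 (mm10) and HOMER, counting at most 3 tags per position. Factor libraries were fixed with DSG and formaldehyde and H3K27ac libraries with formaldehyde alone. All 589 regions assigned to a SOCS gene were kept. Counts with at least 4 tags (factors) or 16 (H3K27ac) in 1 library were tested with edgeR 4.0.16 (R 4.3.3), with 1 quasi-likelihood fit for each table over all its groups. The NCoR ERKi fit used its own 2 groups. The header totals were the library sizes, and p-values were adjusted by Benjamini-Hochberg over all regions of the table. Standard errors are the log2 fold change divided by the root of F. DESeq2 1.42.0 gave the Wald test. No per-sample column was left unused (0), and 30 input libraries have no column. The genes, the pathway and marker lists and the tests were chosen with earlier results of these data known. Named by rule were, for each gene and table, the region nearest the TSS within 2 kb, the most abundant region beyond it and at most the 3 called regions with the lowest p in each direction. Other regions named were chosen after their values were seen. Replicate numbers did not pair the libraries (31 correlations of same-numbered libraries, -0.0266 to 0.0255). In simulated counts, 147 of 200 regions changed 3-fold were called for NCoR KLA against Veh (55045 regions, 8 false calls) and 153 of 200 for H3K27ac WT KLA against Veh (17153 regions, 11 false calls). The simulation gave all regions 1 dispersion and changed only regions above a set expected count. It therefore does not give the power at SOCS regions with few tags. Region distances were within 10 bp of a RefSeq TSS for 566 of 589 regions. The sequence of 1 Socs3 site is not reported here.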

Additional observations from a re-analysis of the deposited data

Results flagged for a closer look

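In the Pgc1b experiment, the H3K27ac response to KLA differed between flox Cre and flox cells at 2 SOCS windows by the test of the difference itself. At Socs1 +30.8 kb the difference of the log2 fold changes was -1.66 (adjusted p = 4.48e-09), from 152 and 180.1 to 105 and 102 tags in flox cells and from 159.6 and 142 to 33.2 and 26.7 in flox Cre cells. At the Cish promoter window the difference was 1.22 (adjusted p = 0.0247), with 5.61 and 9.29 tags in the flox Cre Veh libraries, and this call was lost without Pgc1b flox Veh replicate 1 or Pgc1b flox KLA replicate 2 or Pgc1b flox Cre Veh replicate 1.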

How the results depend on the processing

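With the replicate block, the count of called SOCS regions went from 11 to 3 for Fosl2 (KLA against Veh), from 10 to 4 for p300 (Day4 against Day0) and from 0 to 1 for H3K27ac in NKO against WT cells with KLA, and of 374 named regions 17 lost their call and 2 gained one. The numbers did not pair the libraries, so these fits only show what a shared number would change. With TMM, DESeq2 size factors and DESeq2's Wald test, PU.1 calls went from 8 to 13 in each, NCoR ERKi calls from 21 to 12, 11 and 13, p300 Day4 calls from 10 to 0 in each, and Pgc1b flox Cre against flox with KLA from 2 to 1 in each. H3K27ac in NKO against WT cells with Veh, and the difference between their KLA responses, each went from 0 to 1 in all 3. The Wald test also gave 27 calls for p65 in place of 44 and 1 for PGC1β with ERKi in place of 0, and without the filter on low counts NKO against WT with KLA gave 1. The cause of these changes was not tested. NCoR at the Cish promoter region at -533 bp turned from -1.03 (ERKi against KLA) to 0.15 with TMM, 0.14 with size factors and 0.14 with the Wald test.

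Leaving out each library in turn gave 17 to 34 calls for NCoR, 17 to 32 for HDAC3, 5 to 13 for PGC1β, 27 to 44 for p65, 0 to 19 for Fosl2, 0 to 2 for ERK1 Day4, 1 to 13 for p300 Day4, 5 to 9 for H3K27ac KLA in NKO cells, 0 to 1 for NKO against WT with KLA, 0 to 1 for Pgc1b flox Cre against flox with Veh and 1 to 2 for the Pgc1b difference in KLA response. Of 2057 such values for named regions, 1889 kept their direction and side of the threshold, 140 lost the call, 28 gained one and 0 turned direction. With TMM 333 of 374 kept both, 30 lost the call, 10 gained one and 1 turned. With 2 libraries a group, and 3 tags equal to 1.39 to 6.98 tags per 10 M, peaks under these levels could not be read.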
